A study of Saccharomyces cerevisiae with 6 samples.

Results

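The ADE genes encode the enzymes that build purine nucleotides in Saccharomyces cerevisiae. The group described here is a list of 10 of them, ADE1, ADE2, ADE3, ADE4, ADE5,7, ADE6, ADE8, ADE12, ADE13 and ADE17, each read from a probe set that the platform annotation assigns to that gene alone. Of these 10 genes, 9 had such a probe set, 1 each, and all 9 passed the filter on dim genes, among 5656 genes with a probe set and 4242 tested. ADE5,7 has no probe set named for it alone here and gets no value. ADE2 is also a common marker gene of laboratory strains, so it was set against the other members.

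Total RNA was measured on 6 single-colour Affymetrix yeast arrays, 2 per group. The groups were cells deleted for FHL1, cells that lack IFH1 as well as FHL1 (the double deletion), and wild type (WT). Below, the words FHL1 deletion strain and double deletion strain name these groups, not a single strain each, since mating-type markers differed within both. Every culture was grown at 30 °C. FHL1 encodes a forkhead-type protein found at ribosomal protein gene promoters, and IFH1 encodes its coactivator there. The labels number the arrays of each group as first and second experiment and do not say whether these were separate cultures, so p-values measure only the spread between these arrays. The sources used here do not give the strain backgrounds, the marker genes, the growth medium or whether it held adenine.

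De novo purine synthesis starts from phosphoribosyl pyrophosphate (PRPP) and builds the purine ring on it step by step, ending at inosine monophosphate (IMP). IMP is then turned into AMP by one branch and into GMP by another. In yeast the transcription factors Bas1 and Pho2 activate many ADE genes and part of the one-carbon and histidine pathways, and adenine in the medium represses these genes.

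Values are log2 signals after each array's median was set equal, and a difference of 1 is a 2-fold change. Signals of different probe sets were not compared with each other as levels. FHL1 had 3.15 and 2.60 on the arrays of the FHL1 deletion and 2.64 and 2.88 on those of the double deletion, against 4.97 and 5.08 on the WT arrays (first experiment first, here and below), all under the floor of 5.63. IFH1 had 4.93 and 5.39 on the double deletion arrays, against 8.91 and 8.92 for the FHL1 deletion and 8.38 and 8.63 for WT. Apart from the labelled groups, exactly equal deposited values linked the second FHL1 deletion array, the first double deletion array and the first WT array (502 to 859 probe sets per pair), called set A. The other 3 arrays, called set B, shared at most 1 equal value with any array. The first FHL1 deletion array and the second double deletion array, both in set B, carried MATa markers: 6 MATa markers summed to 19710 and 17060 on the linear scale on these arrays and to between 685.5 and 829.1 on the other 4. The 4 measured MATalpha markers summed to 546.4 and 578.5 there and to between 10150 and 15430 on the others. Differences within each set are given beside the pooled ones. In set A all 3 arrays carried MATalpha markers, while in set B both mutants carried MATa markers and WT carried MATalpha markers. Deletion and mating type thus cannot be told apart within set B, and a model term for array set does not remove this. The part of mating type in the differences was not tested.

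In the FHL1 deletion, ADE1 and ADE2 rose, ADE12 fell, and the other 6 measured ADE genes did not pass the test. In the double deletion, ADE1, ADE2 and ADE17 rose, ADE12 fell, and 5 did not pass. A gene was called when limma's adjusted p, over all tested genes, was under 0.05. Against 2 of 9 ADE genes rising in the FHL1 deletion, 12.9% of all tested genes rose, and against 1 of 9 falling, 8.42% fell. In the double deletion 3 of 9 rose and 1 of 9 fell, beside 9.78% and 8.46% of all tested genes. The median difference from WT over the 9 genes was 0.46 in the FHL1 deletion strain and 0.52 in the double deletion strain, beside 0.02 and 0.01 over all tested genes. Both comparisons use the same WT arrays, so their likeness is no separate evidence. In RNA from whole cultures, a change in every cell and a change in the share of cells that express a gene cannot be told apart.

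**Figure D1:**
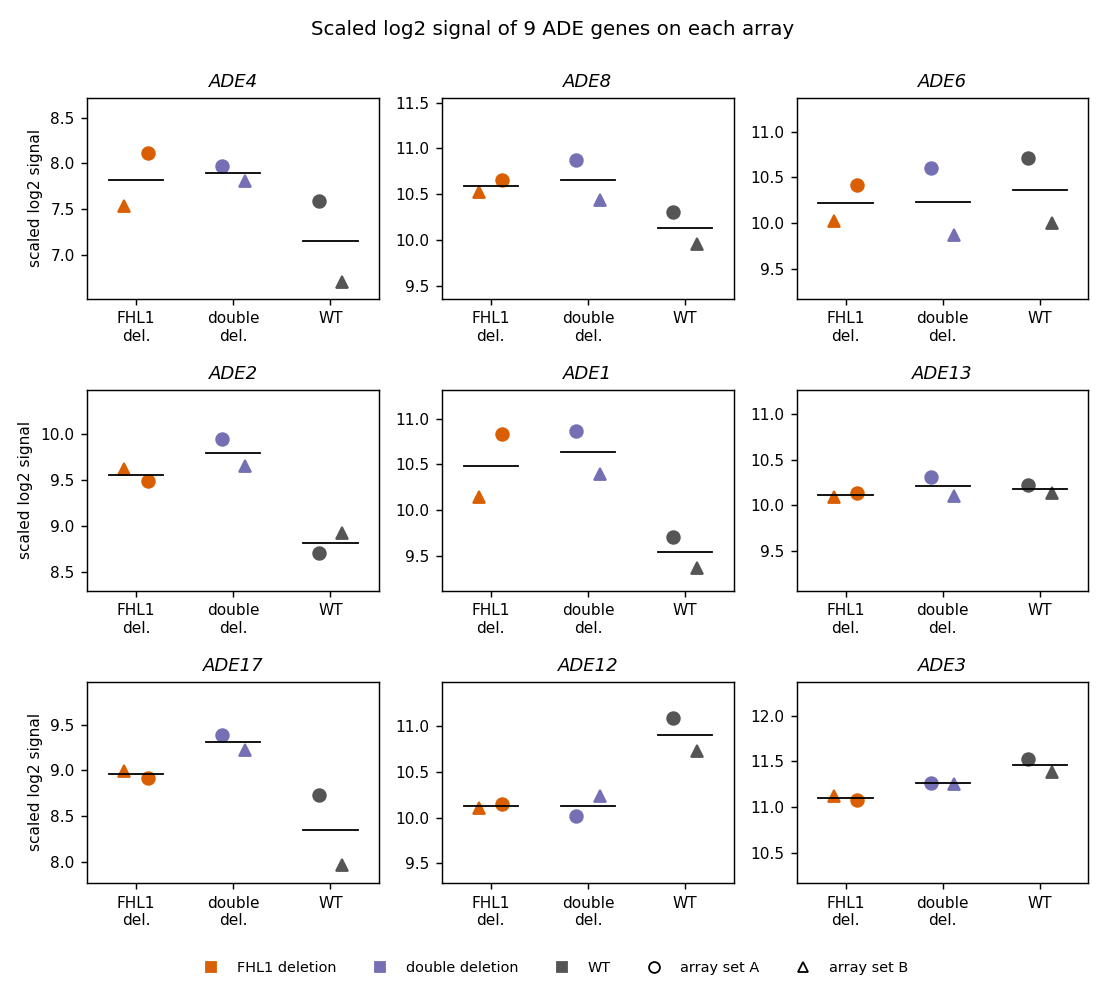
Scaled log2 signal (vertical axes, each spanning the same range) of the 9 measured ADE genes on each array. Points are arrays, coloured by group and shaped by array set, and lines are group means of 2 arrays. ADE1, ADE2, ADE8 and ADE17 had all 4 mutant arrays above both WT arrays, and ADE3 and ADE12 had all 4 below.

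The early steps were read from 3 genes. ADE4 encodes the amidotransferase that commits PRPP to the pathway. It had 7.53 and 8.11 on the arrays of the FHL1 deletion and 7.97 and 7.81 on those of the double deletion, against 7.59 and 6.71 on the WT arrays. The mutant and WT arrays overlapped, since the first WT array was brighter than the first FHL1 deletion array, and the second WT array lay apart at the low end. The differences were 0.67 in the FHL1 deletion (SE 0.31, adjusted p = 0.167) and 0.74 in the double deletion (SE 0.31, adjusted p = 0.148). Without the second WT array they were 0.23 and 0.30, and without the first they were 1.11 and 1.18, uncalled in each case. Both passed once array set entered as a block, at adjusted p = 0.0211 and 0.0165.

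ADE8 encodes the first of the pathway's formyl-transferring enzymes. Its signal was 10.52 and 10.66 in the FHL1 deletion strain and 10.87 and 10.43 in the double deletion strain, against 10.30 and 9.96 in WT. All mutant arrays were above both WT arrays, by 0.13 at the closest point. Its differences of 0.46 (SE 0.20, adjusted p = 0.137) and 0.52 (SE 0.20, adjusted p = 0.11) did not pass, and they did once array set entered as a block (adjusted p = 0.021 and 0.0148). ADE6 encodes the enzyme of the next step, which adds nitrogen from glutamine. It had 10.03 and 10.41 in the FHL1 deletion strain and 10.60 and 9.87 in the double deletion strain, against 10.72 and 10.01 in WT. Here each group held 1 bright and 1 dim array, and in every group the bright one belonged to set A. The differences from WT were -0.14 (95% interval -0.87 to 0.59) and -0.13 (95% interval -0.86 to 0.61), which leave out a rise as large as those of ADE1.

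The middle steps, encoded by ADE2 and ADE1, held the largest rises among the measured members. ADE2 encodes the carboxylase that acts on aminoimidazole ribotide, the intermediate from which the red pigment of ade2 mutants derives. It had 9.63 and 9.49 on the arrays of the FHL1 deletion and 9.95 and 9.65 on those of the double deletion, against 8.70 and 8.92 on the WT arrays. The 4 mutant arrays were all above both WT arrays, with a gap of 0.57, the widest such gap among the 9 genes. The rise was 0.75 in the FHL1 deletion (SE 0.16, adjusted p = 0.0212), a fold of 1.68, and 0.99 in the double deletion (SE 0.16, adjusted p = 0.0107), a fold of 1.99. Within sets A and B the FHL1 deletion differed from WT by 0.79 and 0.71, and the double deletion by 1.25 and 0.73. The call in the FHL1 deletion was lost without that group's first array (0.68, adjusted p = 0.0693), without the first WT array (0.64, adjusted p = 0.108) and without the second (0.86, adjusted p = 0.0699). In the double deletion it was lost without the first WT array (0.88, adjusted p = 0.0683).

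ADE1 encodes the synthetase that joins aspartate to the product of the Ade2 enzyme. It had 10.14 and 10.83 on the arrays of the FHL1 deletion and 10.86 and 10.40 on those of the double deletion, against 9.71 and 9.37 on the WT arrays. Every mutant array was at least 0.43 above the brighter WT array, and the set A arrays were the brighter ones in each group. ADE1 rose by 0.95 in the FHL1 deletion (SE 0.27, adjusted p = 0.0457), a fold of 1.93, and by 1.09 in the double deletion (SE 0.27, adjusted p = 0.0348), a fold of 2.13. Set A gave 1.12 and 1.15, and set B gave 0.77 and 1.03. The adjusted p in the FHL1 deletion lay just under the threshold and became 0.0561 after quantile normalization. It also failed without the second FHL1 deletion array (0.60, adjusted p = 0.16), the first WT array (1.12, adjusted p = 0.0967) or the second (0.78, adjusted p = 0.212). In the double deletion the call was lost without the first double deletion array (0.86, adjusted p = 0.121), the first WT array (1.26, adjusted p = 0.0904) or the second (0.92, adjusted p = 0.166).

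ADE13 encodes adenylosuccinate lyase, which acts both in ring building and in the branch to AMP. Its signal hardly varied, with 10.09 and 10.14 for the FHL1 deletion, 10.31 and 10.11 for the double deletion and 10.22 and 10.13 for WT. The 95% intervals of its differences from WT, -0.39 to 0.27 and -0.30 to 0.36, left out changes as large as those measured for ADE1 and ADE2. ADE17 encodes the bifunctional enzyme that closes the ring to IMP. It had 9.00 and 8.91 on the arrays of the FHL1 deletion and 9.38 and 9.23 on those of the double deletion, against 8.73 and 7.97 on the WT arrays. All mutant arrays lay above both WT arrays, by 0.18 from the brighter one. ADE17 rose by 0.95 in the double deletion (SE 0.24, adjusted p = 0.0374), a fold of 1.94, and differed by 0.60 in the FHL1 deletion (SE 0.24, adjusted p = 0.116). The second WT array carried much of both values: without it the double deletion value was 0.57 (adjusted p = 0.125) and the FHL1 deletion value 0.22 (adjusted p = 0.481). Without the first WT array the FHL1 deletion value was 0.99 and passed (adjusted p = 0.0322), and without the first or the second double deletion array the double deletion value did not pass (0.88, adjusted p = 0.115, and 1.03, adjusted p = 0.0839). The FHL1 deletion value also passed once array set entered as a block (adjusted p = 0.0426). ADE16 encodes the isozyme of the Ade17 enzyme. It had 10.41 and 10.47 in the FHL1 deletion strain and 10.63 and 10.58 in the double deletion strain, against 10.72 and 10.61 in WT, and its differences of -0.23 (adjusted p = 0.25) and -0.06 (adjusted p = 0.792) did not pass. Whether the probe sets of these related genes also take up each other's RNA was not tested.

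ADE12 moved opposite to ADE1 and ADE2. It encodes adenylosuccinate synthase, which takes IMP into the branch to AMP and thus acts after the ring is complete. Its signal was 10.10 and 10.15 on the arrays of the FHL1 deletion and 10.02 and 10.24 on those of the double deletion, against 11.09 and 10.72 on the WT arrays. The groups did not overlap, and the 4 mutant arrays lay 0.49 or more below the dimmer WT array. The fall was -0.78 in both deletions (SE 0.17 each), with adjusted p = 0.0204 for the FHL1 deletion and adjusted p = 0.024 for the double deletion. Set A gave -0.94 and -1.07, and set B gave -0.62 and -0.49. In the FHL1 deletion the call was lost without that group's first array (-0.76, adjusted p = 0.0564), its second (-0.81, adjusted p = 0.056) or the first WT array (-0.60, adjusted p = 0.0997). In the double deletion it was lost without the first or second double deletion array (-0.67, adjusted p = 0.0959, and -0.89, adjusted p = 0.0528), and without the first or second WT array (-0.60, adjusted p = 0.117, and -0.96, adjusted p = 0.0511).

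ADE3 encodes the cytoplasmic C1-tetrahydrofolate synthase, which supplies the one-carbon units that the ring takes up. It had 11.12 and 11.08 in the FHL1 deletion strain and 11.26 and 11.25 in the double deletion strain, against 11.53 and 11.38 in WT, so that all mutant arrays were below both WT arrays, by 0.12 at the closest point. The differences of -0.36 (SE 0.12, adjusted p = 0.0799) and -0.20 (SE 0.12, adjusted p = 0.306) did not pass. The FHL1 deletion value passed once array set entered as a block (adjusted p = 0.0313), and with no filter on dim genes too (adjusted p = 0.0475).

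**Figure D2:**
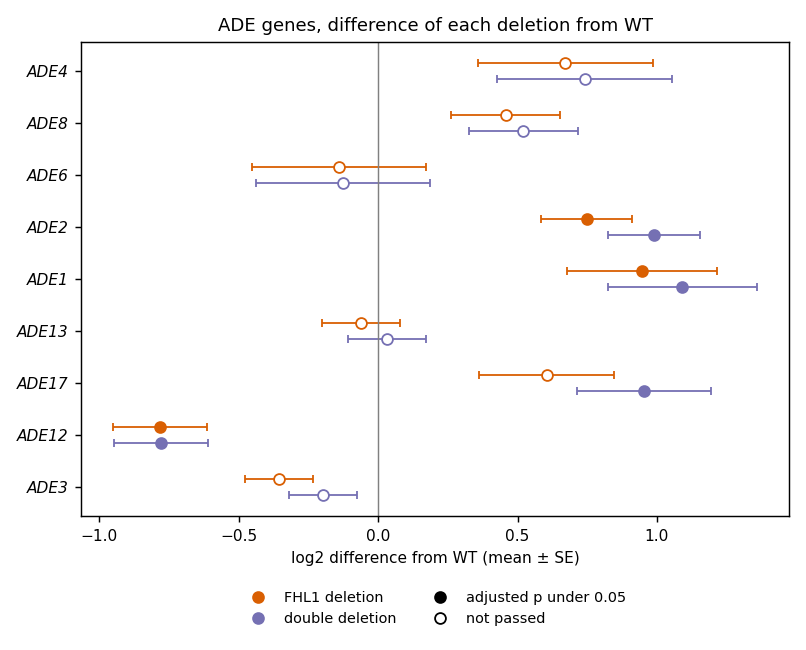
Log2 difference from WT (horizontal axis, mean of 2 arrays minus mean of 2 WT arrays, bars are SE of the limma model) for the 9 measured ADE genes in pathway order, with the AMP branch and one-carbon genes last. Filled points passed at an adjusted p under 0.05: ADE1 and ADE2 were above 0 in both deletions, ADE17 in the double deletion, and ADE12 lay at -0.78 in both.

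Over the 9 genes together, 4 had all mutant arrays above both WT arrays and 2 had all of them below, while ADE4, ADE6 and ADE13 overlapped. These were 44.4% and 22.2% of the members, beside 27.3% and 23.9% of all tested genes. With array set as a block, ADE1, ADE2, ADE4, ADE8 and ADE17 rose and ADE3 and ADE12 fell when FHL1 was deleted, 7 of 9 calls, and for the double deletion 5 rose and 1 fell. That block also raised the calls over all tested genes to 41.7% for the FHL1 deletion and 37.2% for the double deletion, against 21.3% and 18.2% without it. The 4 arrays with MATalpha markers, 1 of each mutant and both WT, gave 3 rises and 1 fall among the 9 genes in the FHL1 deletion, beside 23.8% of all tested genes called, and 5 rises and 1 fall in the double deletion, beside 17.5%. In the fit of these MATalpha arrays each mutant is 1 array, so the spread of each mutant is not measured. Its counts therefore cannot be read like those of the fits with 2 arrays per group. With no filter on dim genes, ADE1 lost its call in both deletions (adjusted p = 0.125 and 0.107). Without that filter ADE12 and ADE17 lost theirs in the double deletion (adjusted p = 0.06 and 0.111).

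No ADE gene passed between the double deletion and the FHL1 deletion, and none had an unadjusted p under 0.05 by limma, as 213 of all tested genes did. Of all tested genes 1, or 0.0236%, was called there, and it was the deleted IFH1 itself. Each of the 9 ADE genes had a higher mean in the double deletion, by 0.00 for ADE12 up to 0.35 for ADE17 (SE 0.24, adjusted p = 0.988), with a median of 0.09. Of all tested genes 44.6% had a higher mean in the double deletion, around a median of -0.02. ADE2 differed by 0.24 (95% interval -0.14 to 0.63), and within sets A and B its difference was 0.46 and 0.03. The direction was not the same in both sets for ADE4, ADE6, ADE8 and ADE12.

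Between the WT arrays, ADE2 ran against the other members. The first WT array was brighter than the second for 8 of the 9 genes, by 0.09 for ADE13 up to 0.88 for ADE4, with 0.76 for ADE17 and 0.71 for ADE6. ADE2 was the exception, dimmer there by 0.22. Over all tested genes the first WT array was brighter for 54.2%, with a median of 0.03, against a median of 0.35 over the 8 ADE genes without ADE2. The gap between the arrays of sets A and B had a median of 0.05 over the 9 genes in the FHL1 deletion strain and 0.20 in the double deletion strain, beside 0.01 and -0.003 over all tested genes. The WT arrays both carried MATalpha markers, so mating type did not differ within that pair.

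Set against the median of the other 8 members on the same array, ADE2 was nearer to it in the mutants. The median of the others was 10.10 and 10.28 on the arrays of the FHL1 deletion and 10.45 and 10.17 on those of the double deletion, against 10.26 and 9.98 on the WT arrays, which overlap. ADE2 minus that median was -0.47 and -0.79 in the FHL1 deletion strain and -0.50 and -0.52 in the double deletion strain, against -1.56 and -1.06 in WT. All mutant values were above both WT values. The group means were -0.63 ± 0.22 in the FHL1 deletion, -0.51 ± 0.01 in the double deletion and -1.31 ± 0.35 in WT (SD, n = 2 each). The size of this difference holds the unlike brightness of different probe sets, so only its movement between arrays can be read, and no test was made of it. Relative to the mean of the others in place of the median, the values were -0.19 and -0.54 in the FHL1 deletion strain and -0.21 and -0.26 in the double deletion strain, against -1.28 and -0.61 in WT, so the second WT array came close to the second FHL1 deletion array.

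**Figure D3:**
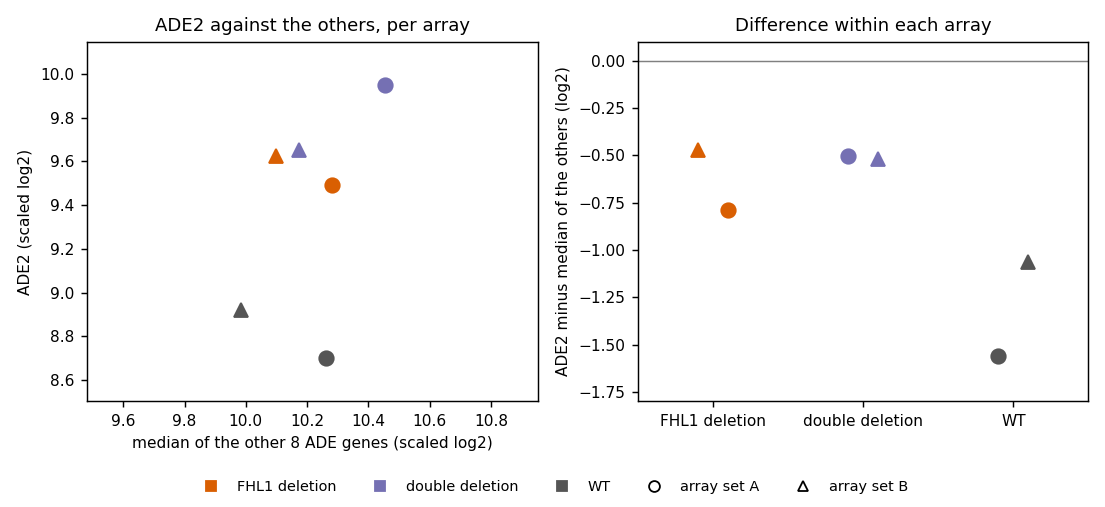
Left, ADE2 signal (vertical) against the median signal of the other 8 measured ADE genes (horizontal) on each array, both in scaled log2 units. Right, ADE2 minus that median per array: -0.47 to -0.79 on the 4 mutant arrays, above -1.06 and -1.56 on the WT arrays.

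Among the members ADE2 ranked second in each comparison with WT, behind ADE1. Differences larger than that of ADE2 were found for 324 of all tested genes (7.64%) for the FHL1 deletion and 129 (3.04%) for the double deletion. Without ADE2 the median difference from WT of the other 8 members was 0.20 in the FHL1 deletion strain and 0.28 in the double deletion strain. ADE2 therefore lay above the middle of the group but within its range, which ran from -0.78 for ADE12 to 0.95 for ADE1 in the FHL1 deletion and from -0.78 to 1.09 for the same genes in the double deletion.

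Among common marker genes, HIS3 of histidine synthesis had the widest separation of mutant and WT arrays. It had 10.06 and 10.24 in the FHL1 deletion strain and 10.23 and 10.02 in the double deletion strain, against 7.13 and 6.99 in WT, a rise of 3.09 (SE 0.15, adjusted p = 0.00049) and 3.06 (SE 0.15, adjusted p = 0.000434). MET17 of sulfur assimilation fell by 0.56 (SE 0.12, adjusted p = 0.02) and by 1.23 (SE 0.12, adjusted p = 0.00227), and LEU2 of leucine synthesis fell by 0.69 in the FHL1 deletion (SE 0.17, adjusted p = 0.03). The LEU2 value in the double deletion was -0.55 (adjusted p = 0.0621), and it passed under the array set block (adjusted p = 0.021), with the mean of its probe sets (-0.67, adjusted p = 0.0174) and without probe sets of a lettered suffix (-0.59, adjusted p = 0.0425). The LEU2 call in the FHL1 deletion was lost when any array of either group was left out, with adjusted p between 0.0532 and 0.141, and with no filter on dim genes (adjusted p = 0.0606). MET17 in the FHL1 deletion was lost without that group's first array (adjusted p = 0.0846) or without the first (adjusted p = 0.0783) or second WT array (adjusted p = 0.0981). LYS2 of lysine synthesis, TRP1 of tryptophan synthesis, URA3 of pyrimidine synthesis and the arginine permease gene CAN1 did not pass. TRP1 had a difference of 0.75 in the FHL1 deletion (adjusted p = 0.0505), as large as that of ADE2. Once array set entered as a block, TRP1 and LYS2 passed in both deletions, at adjusted p between 0.00415 and 0.00864, and URA3 in the double deletion (adjusted p = 0.0249). In the deposited scaling TRP1 passed in both as well (adjusted p = 0.0267 and 0.0458). It also passed in the FHL1 deletion with the lowest 50% of genes left out (adjusted p = 0.047) and with the mean of probe sets (adjusted p = 0.0497). In the double deletion TRP1 passed in a fit of the compared arrays alone (adjusted p = 0.0348).

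**Figure D4:**
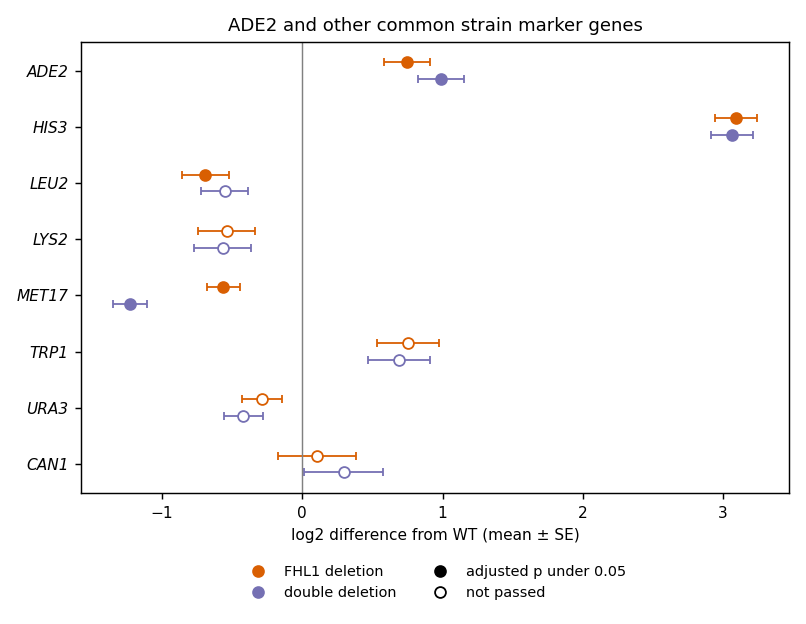
Log2 difference from WT (horizontal axis, bars are SE, n = 2 arrays per group) of ADE2 and 7 other genes often used as strain markers. Filled points passed at an adjusted p under 0.05. HIS3 stands at 3.09 and 3.06, and the ADE2 values of 0.75 and 0.99 lie near that of TRP1 at 0.75 in the FHL1 deletion.

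The protein-coding genes on either side of ADE2, chosen after the values were seen, did not pass in the FHL1 deletion. RGA1 differed from WT by 0.31 there (adjusted p = 0.201) and rose by 0.60 in the double deletion (adjusted p = 0.0391), a call not tried with arrays left out. AFI1 differed by -0.16 (adjusted p = 0.458) and -0.13 (adjusted p = 0.575).

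Genes around the ADE pathway were read from lists by role. Of 42 such genes, 41 had a probe set of their own and 37 were tested: for the FHL1 deletion 3 rose and 1 fell, and for the double deletion 3 rose and 2 fell. These are 10.8% and 13.5% of the tested genes on the lists, below the 21.3% and 18.2% called among all tested genes. Their median difference from WT was 0.02 and -0.06. With array set as a block 14 and 15 of the 37 were called, beside 41.7% and 37.2% of all tested genes. The 11 genes of one-carbon supply held 2 rises and 1 fall in the FHL1 deletion (27.3% called) and 2 rises and 2 falls in the double deletion (36.4% called).

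GCV1 and GCV3 encode parts of the mitochondrial glycine cleavage complex, which makes one-carbon units from glycine. GCV1 had 10.48 and 10.66 in the FHL1 deletion strain and 10.77 and 10.54 in the double deletion strain, against 9.68 and 8.78 in WT, a rise of 1.34 (SE 0.28, adjusted p = 0.0177) and 1.43 (SE 0.28, adjusted p = 0.0175). GCV3 had 13.24 and 13.61 in the FHL1 deletion strain and 13.59 and 13.30 in the double deletion strain, against 12.36 and 11.73 in WT, a rise of 1.38 (SE 0.23, adjusted p = 0.00856) and 1.40 (SE 0.23, adjusted p = 0.00983). In both genes the mutant arrays were all above WT and the second WT array was the dimmest, as it was for ADE1, ADE4, ADE8 and ADE17. Without the second WT array, GCV1 gave 0.89 (adjusted p = 0.0555) and 0.98 (adjusted p = 0.0546), and without the first double deletion array it gave 1.31 in the double deletion (adjusted p = 0.0589). The GCV3 calls held with each array left out. GCV2, of the same complex, gave 0.66 (adjusted p = 0.238) and 0.83 (adjusted p = 0.163), with its WT arrays at 10.84 and 9.78. It passed once array set entered as a block (adjusted p = 0.019 and 0.0095). On the MATalpha arrays, 1 per mutant, the GCV2 differences were 0.85 and 1.19, and the spread of each mutant is not measured there. LPD1 encodes the dehydrogenase subunit that this complex shares with other enzymes. It had 11.13 and 10.96 in the FHL1 deletion strain and 11.20 and 10.84 in the double deletion strain, against 11.54 and 11.46 in WT, so that all mutant arrays were below both WT arrays, opposite to GCV1 and GCV3. Its differences of -0.46 (adjusted p = 0.0828) and -0.48 (adjusted p = 0.0783) did not pass, and they did with array set as a block (adjusted p = 0.0396 and 0.0361).

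Among the other one-carbon genes, 3 passed in 1 of the deletions, each of them lower than in WT. The mitochondrial C1-tetrahydrofolate synthase gene MIS1, counterpart of ADE3, fell by 0.58 in the FHL1 deletion (SE 0.16, adjusted p = 0.0443) and had -0.42 in the double deletion (adjusted p = 0.122). In the double deletion the mitochondrial serine hydroxymethyltransferase gene SHM1 fell by 0.57 (SE 0.15, adjusted p = 0.0409) and the dihydrofolate reductase gene DFR1 fell by 0.95 (SE 0.20, adjusted p = 0.0233). Their values in the FHL1 deletion were -0.36 (adjusted p = 0.126) and -0.57 (adjusted p = 0.0853). Once array set entered as a block, all 3 passed in the other deletion too, MIS1 in the double deletion at adjusted p = 0.0392, and SHM1 and DFR1 in the FHL1 deletion at adjusted p = 0.0362 and 0.0198. The MIS1 call was lost with any one of the 6 arrays left out (adjusted p between 0.0577 and 0.212), and the SHM1 call with any double deletion or WT array left out (adjusted p between 0.0551 and 0.175). DFR1 lost its call without the second double deletion array (adjusted p = 0.1) or either WT array (adjusted p = 0.0965 and 0.109). The MIS1 and SHM1 calls were also lost in the deposited scaling (adjusted p = 0.074 and 0.0573), and that of MIS1 in a fit of the compared arrays alone (adjusted p = 0.0572). SHM2, which encodes the cytoplasmic serine hydroxymethyltransferase, did not pass, at 0.21 (adjusted p = 0.589) and 0.43 (adjusted p = 0.295). FOL3, also on the one-carbon list, passed only in the FHL1 deletion with array set as a block (0.39, adjusted p = 0.0347).

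The GMP branch had no call in either deletion among 4 genes tested, with medians of -0.29 and -0.33. Every member was below 0 in both, while 52.2% and 50.5% of all tested genes were above 0. An unadjusted p under 0.05 by limma was found for 1 gene in the FHL1 deletion strain and 2 in the double deletion strain. Of all 4242 tested genes, 1556 and 1416 had such a p. IMD2, which encodes an IMP dehydrogenase, was lowest at -0.60 (adjusted p = 0.086) and -0.52 (adjusted p = 0.133), and its probe set is of the family kind, which may also take up RNA of its relatives. IMD2 passed under the array set block (adjusted p = 0.00831 and 0.0145) and with the mean of its probe sets (-0.74, adjusted p = 0.0237, and -0.69, adjusted p = 0.0345), and in the FHL1 deletion without that group's second array (-0.87, adjusted p = 0.0345). IMD4, of the same family, had -0.27 and -0.29 on its brightest probe set, and the mean of its probe sets gave -0.84 (adjusted p = 0.0252) and -0.76 (adjusted p = 0.0385). It also passed with array set as a block (adjusted p = 0.0484 and 0.0405), as IMD3 did in the double deletion (adjusted p = 0.0364). PRPP synthetase genes (5 tested) had none either and 1 unadjusted p under 0.05 in each deletion, that of PRS2, with PRS2 at 0.42 (adjusted p = 0.0631) and 0.40 (adjusted p = 0.0834). PRS2 passed with array set as a block (adjusted p = 0.0185 and 0.0249) and, in the FHL1 deletion, in the deposited scaling (adjusted p = 0.0318) and with no filter on dim genes (adjusted p = 0.0491). PRS5 passed in the FHL1 deletion with array set as a block (0.35, adjusted p = 0.0476). None of 12 salvage and interconversion genes and neither of the 2 tested transport genes passed by limma. They had 0 unadjusted p under 0.05 in the FHL1 deletion and 2, both of salvage genes, in the double deletion. Among all 4242 tested genes these numbers were 1556 and 1416. With array set as a block, the salvage genes ADK1 (-0.36, adjusted p = 0.034) and XPT1 (-0.41, adjusted p = 0.044) passed in the double deletion. PNP1, also of salvage, passed in the FHL1 deletion with that block (0.32, adjusted p = 0.0471).

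The filter on mean brightness left out the other transport genes, FCY21 and FCY22, relatives of the purine-cytosine permease gene FCY2, and a low level in the mutants itself lowers that mean. FCY21 had 5.76 and 5.95 in the FHL1 deletion strain and 5.88 and 6.15 in the double deletion strain, against 7.51 and 7.56 in WT. All mutant arrays were at least 1.36 below both WT arrays. In the fit with no filter FCY21 fell by 1.68 (SE 0.12, adjusted p = 0.0169) and by 1.52 (SE 0.12, adjusted p = 0.0223). Its mutant values lay close to the floor of 5.63. The shared estimate of spread in that fit also includes genes set to the floor on every array, such as FHL1. FCY22 had 6.32 and 6.06 in the FHL1 deletion strain and 5.86 and 6.26 in the double deletion strain, against 6.80 and 7.49 in WT, again with all mutant arrays below. Its differences in that fit, -0.96 (adjusted p = 0.109) and -1.09 (adjusted p = 0.0972), did not pass, and neither did those of the guanine deaminase gene GUD1, -0.70 (adjusted p = 0.0823) and -0.55 (adjusted p = 0.142). FCY2 itself differed by -0.25 (adjusted p = 0.572) and -0.34 (adjusted p = 0.451). On the MATalpha arrays alone, with 1 array per mutant, it differed by -0.56 and -0.71. Whether these related genes share signal was not tested.

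Among the regulators, GCN4, the activator of amino acid synthesis genes that also acts on some ADE genes, rose by 0.43 in both deletions (SE 0.11 each), with adjusted p = 0.0364 for the FHL1 deletion and adjusted p = 0.0417 for the double deletion. Both calls were lost with any array of the groups compared left out (adjusted p between 0.0628 and 0.184), on the MATalpha arrays alone (adjusted p = 0.13 and 0.103) and with no trend in the spread (adjusted p = 0.0731 and 0.083), and the one in the FHL1 deletion also when probe sets with a lettered suffix were left out (adjusted p = 0.0514). With no filter on dim genes, the calls of GCV1, GCV3, MIS1, SHM1, DFR1 and GCN4 were all lost, at adjusted p between 0.052 and 0.0882. BAS1 differed by 0.24 (adjusted p = 0.244) and 0.37 (adjusted p = 0.106), with both deletions above WT on every array, and passed in the double deletion with array set as a block (adjusted p = 0.0295). PHO2 was too dim to be tested.

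**Figure D5:**
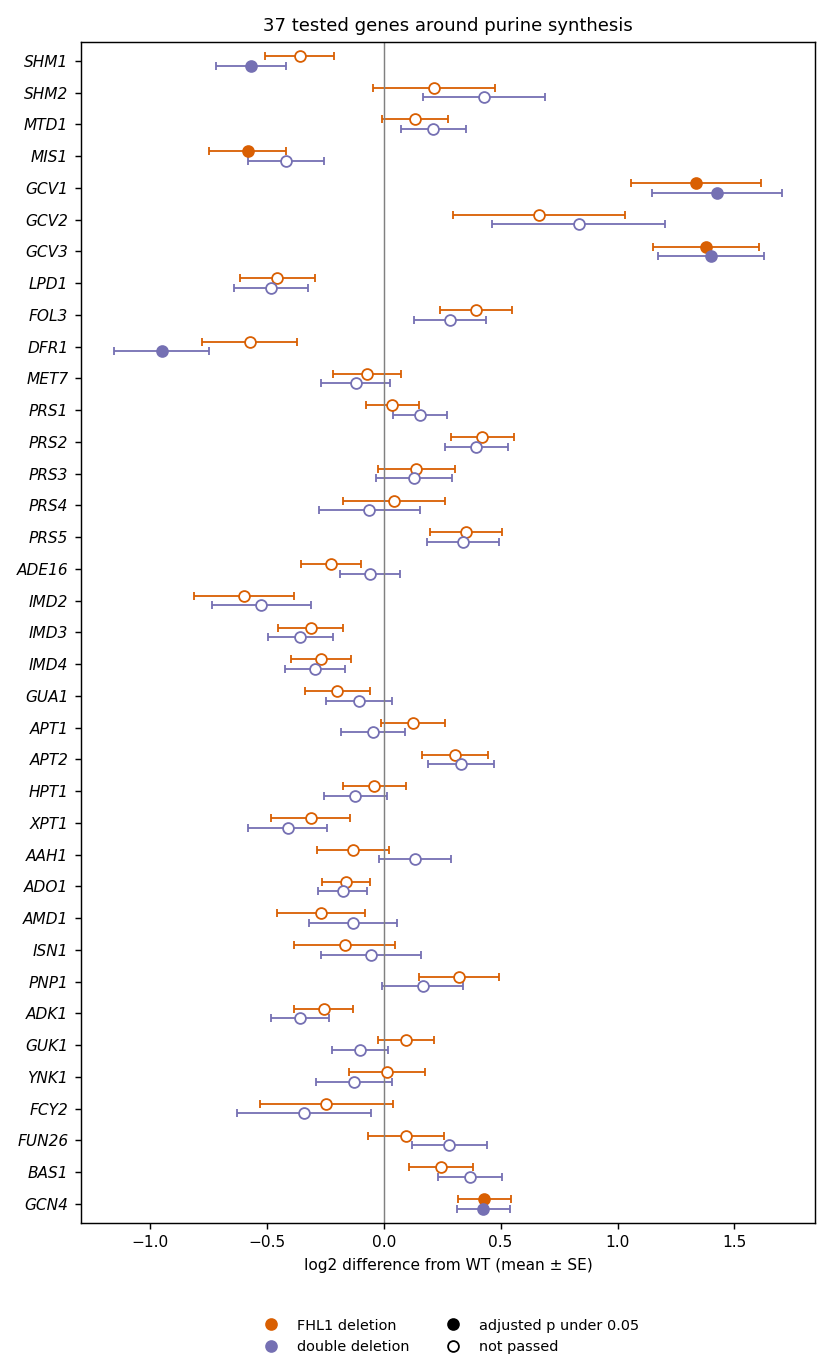
Log2 difference from WT (horizontal axis, bars are SE, n = 2 arrays per group) of the 37 tested genes around purine synthesis, ordered by role from one-carbon supply to regulators. Filled points passed at an adjusted p under 0.05. GCV1 and GCV3 lie between 1.34 and 1.43, and GCN4 at 0.43 in both deletions.

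Histidine synthesis is tied to purine synthesis, because its by-product enters the purine pathway at the substrate of Ade16 and Ade17. HIS1, which encodes the first enzyme, had 11.25 and 11.19 in the FHL1 deletion strain and 11.17 and 11.30 in the double deletion strain, against 12.02 and 11.93 in WT, and fell by 0.75 (SE 0.12, adjusted p = 0.00816) and 0.74 (SE 0.12, adjusted p = 0.0108). HIS4, which encodes a trifunctional enzyme, fell by 1.47 (SE 0.22, adjusted p = 0.0057) and 1.20 (SE 0.22, adjusted p = 0.0144). HIS7, whose enzyme releases that by-product, had differences of -0.05 (adjusted p = 0.827) and 0.00 (adjusted p = 0.985). Of the 7 histidine genes, HIS3 rose, these 2 fell and 4 did not pass in each deletion, beside 12.9% of all tested genes rising and 8.42% falling for the FHL1 deletion, and 9.78% and 8.46% for the double deletion. The HIS1 call was lost without the first WT array in both comparisons (adjusted p = 0.0517 and 0.0675) and, in the double deletion, without the second WT array (adjusted p = 0.057) or the first double deletion array (adjusted p = 0.0503). With no filter on dim genes, HIS4 lost its call in the double deletion (adjusted p = 0.0583).

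By Pearson r over the 6 arrays, used as a measure of likeness only, the tested genes outside the list most like ADE2 were CSL4 at 0.991, YCL049C at 0.990, ISU1 at 0.987, LTV1 at 0.986 and NCE103 at 0.985. An r over 0.9 with ADE2 was reached by 177 of 4233 genes. For ADE2, as for 1160 of all 4242 tested genes, all 4 mutant arrays were above both WT arrays, and such a shared difference by itself raises r. Within the group, ADE12 had an r of -0.96 with ADE2 and ADE1 had 0.84. The genes most like the per-array median of the other 8 members were TOR2 at 0.984, SEN1 at 0.974, ECM38 at 0.971, ASF2 at 0.969 and CMP2 at 0.967, so no gene was named on both lists.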

How the data were processed

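The authors deposited log2 expression values for 9335 probe sets on each array. That they are log2 was judged by their range. The sources used here do not give the summarization, the normalization or a genome build. Gene names come from the platform annotation, in which 6504 probe sets named 1 gene, 328 several and 2503 none. Those 6504 matched genes of the RefSeq table of assembly R64, used for names and gene order only. For genes with several probe sets the brightest was used. Array medians were set equal, a floor at the 10th percentile (5.63) was applied for testing, and the dimmest 25% of genes by mean were dropped. Values printed per array are without that floor.

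The comparisons used limma (3.58.1, under R 4.3.3) on all 6 arrays (1 mean per group, eBayes with trend, 3 residual degrees of freedom), with Benjamini-Hochberg adjustment over 4242 genes and a threshold of 0.05. With 2 arrays per group, their number limits the precision. The model was tested on simulated data, with 50 changes of each size put into the FHL1 deletion. It found 14% of changes of 0.5, 66% of 1, 86% of 2 and 100% of 3, and 3 of 136 calls were false. Simulated arrays were drawn independently, whereas deviations of the real arrays correlated within array sets. Members, lists and the rule for named genes (all members, called genes of the lists, marker genes, the 5 most alike) were chosen with earlier results of these data known. No sequences were used here.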

Additional observations from a re-analysis of the deposited data

How the results depend on the processing

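Directions against WT of the called ADE genes held under every alternative tried. This was largely fixed in advance, because all mutant arrays of each such gene lay on the same side of both WT arrays. Of 510 values of measured members in the 3 comparisons under the alternatives, 11 gained and 29 lost a call. The experiment numbers were not taken to pair the arrays, since deviations matched by number correlated at -0.38 between FHL1 deletion and WT arrays, 0.42 between double deletion and WT arrays and -0.63 between the deletions. Matched by array set, which was defined from the values, they correlated at 0.38, 0.42 and 0.63. With 2 arrays per group the deviations mirror each other, so these are the same values up to sign and add no separate evidence. The ADE2 rise in the FHL1 deletion was 0.75 with adjusted p = 0.0513 under the replicate block on experiment numbers, where ADE1 also lost its call in both deletions (adjusted p = 0.0836 and 0.0708) and ADE12 in the double deletion (adjusted p = 0.0611). Leaving out each array in turn gave 0.64 to 0.86 for ADE2 in the FHL1 deletion, 0.84 to 1.14 in the double deletion and 0.09 to 0.39 between the deletions. Counts of ADE genes called over the same settings ran from 1 to 3 for the FHL1 deletion and from 1 to 4 for the double deletion. A fit with 1 array in a group assumes that it varies like the others. With the replicate block, ADE calls were 1 for the FHL1 deletion and 2 for the double deletion, calls of other purine genes 2 and 2, and all calls 505 and 315. With array set as a block, ADE calls were 7 in the FHL1 deletion, other purine calls 14 and 15, and all calls 1767, 1577 and, between the deletions, 5. In the FHL1 deletion comparison this is also the fit with crossed experiment numbers. With no filter on dim genes, ADE calls in the double deletion were 1, other purine calls 2 and 1, and all calls in the double deletion 461. Between the deletions all calls were 0 with more dim genes left out and 45 on the MATalpha arrays, an alternative chosen after seeing the data. Each array left out gave 1 to 3 and 1 to 5 other purine calls, 252 to 861 and 153 to 816 calls in all, and 1 to 34 between the deletions. Deposited scaling and quantile normalization left the counts of ADE calls at 3 and 2 for the FHL1 deletion and 4 and 4 for the double deletion. The causes were not tested.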
